A study of Mus musculus with 2 samples.

Results

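The proneural bHLH genes described here are the 7 members *Neurog1*, *Neurog2*, *Neurog3*, *Neurod1*, *Neurod4*, *Atoh1* and *Ptf1a*. Their accessible regions were taken as those intervals of a table of 119502 consensus intervals (mm10) whose nearest protein-coding transcription start site (TSS) belonged to a member, which gave 48 intervals. The counts came from ATAC-seq, which reads open chromatin through the adapters that the transposase Tn5 leaves there. It was done on unfixed, mKate2-positive cells isolated by flow cytometry from a mouse embryonic stem cell line carrying mKate2 behind *Olig2*, a gene of motor neuron progenitors (pMN), and labelled as neural progenitors (NPs). The line had been kept on feeder fibroblasts and differentiated first in bFGF and LGK, then in bFGF with CHIR99021, SB-431542 and DMH1, and from day 3 with 100 nM retinoic acid (RA) and 100 nM SAG, a Shh pathway agonist, until day 5. There was 1 group of 2 replicate libraries, each from 50000 cells, so no comparison between conditions could be made. The reporter limits the sample: as the study notes, sorting on it also takes motor neurons that have just formed and some progenitors positive for both OLIG2 and NKX2.2.

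Proneural factors are basic helix-loop-helix (bHLH) transcription factors that move neural progenitors out of the cell cycle and into neuronal differentiation. They pair with the broadly expressed E proteins and bind the E-box, a short motif written CANNTG. Neurogenins act early, in the decision to become a neuron, and the NeuroD factors follow them. Notch signalling, through Hes and Hey repressors, and the Id proteins, which sequester E proteins, hold these factors back. *Neurog2* is the member best known from motor neuron progenitors, whereas *Atoh1* and *Ptf1a* specify dorsal neurons of the spinal cord and *Neurog3* is best known from the endocrine pancreas.

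All 7 members had an interval over their start, and for 5 of them the densest distal interval had a higher mean density than the promoter. By counts not divided by length, that distal interval exceeded the promoter only for *Neurod4*. The *Neurog2* locus held the most counts. The promoters of *Neurog3* and *Ptf1a* were the least dense of the 7. The next lines show DNA from the loci on which these statements rest, read from the mm10 genome on the strand of the gene, with each E-box in capitals. The first 5 are the middle 300 bases of the densest distal interval of *Neurod4*, *Neurog1*, *Neurog2*, *Ptf1a* and *Atoh1*, and the sixth is the window with the most E-boxes of any distal member interval.
Neurod4, 1.93 kb upstream, chr10:130282020-130282319, minus strand: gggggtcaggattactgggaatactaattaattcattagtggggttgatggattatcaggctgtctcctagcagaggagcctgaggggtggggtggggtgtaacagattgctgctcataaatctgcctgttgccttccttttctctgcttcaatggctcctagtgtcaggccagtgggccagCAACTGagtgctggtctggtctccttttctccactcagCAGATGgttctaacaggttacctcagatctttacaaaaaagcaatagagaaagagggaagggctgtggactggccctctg
Neurog1, 30.3 kb downstream, chr13:56221742-56222041, minus strand: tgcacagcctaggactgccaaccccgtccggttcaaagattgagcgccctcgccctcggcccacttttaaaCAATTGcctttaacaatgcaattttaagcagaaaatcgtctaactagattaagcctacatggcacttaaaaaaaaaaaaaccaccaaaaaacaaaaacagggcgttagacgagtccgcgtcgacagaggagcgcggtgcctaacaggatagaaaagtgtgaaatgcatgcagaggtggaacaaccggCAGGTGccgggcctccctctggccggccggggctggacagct
Neurog2, 5.00 kb upstream, chr3:127627988-127628287, plus strand: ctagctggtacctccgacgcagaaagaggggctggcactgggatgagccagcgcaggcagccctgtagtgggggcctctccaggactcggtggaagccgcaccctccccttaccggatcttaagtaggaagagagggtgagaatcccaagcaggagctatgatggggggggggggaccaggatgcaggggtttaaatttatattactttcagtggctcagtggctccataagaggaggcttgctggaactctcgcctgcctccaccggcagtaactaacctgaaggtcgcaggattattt
Ptf1a, 13.6 kb downstream, chr2:19459161-19459460, plus strand: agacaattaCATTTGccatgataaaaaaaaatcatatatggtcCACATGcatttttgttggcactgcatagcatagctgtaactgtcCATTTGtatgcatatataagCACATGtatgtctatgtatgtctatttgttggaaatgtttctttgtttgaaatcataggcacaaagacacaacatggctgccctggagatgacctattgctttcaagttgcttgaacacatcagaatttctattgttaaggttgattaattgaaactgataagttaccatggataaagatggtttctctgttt
Atoh1, 72.0 kb downstream, chr6:64800956-64801255, plus strand: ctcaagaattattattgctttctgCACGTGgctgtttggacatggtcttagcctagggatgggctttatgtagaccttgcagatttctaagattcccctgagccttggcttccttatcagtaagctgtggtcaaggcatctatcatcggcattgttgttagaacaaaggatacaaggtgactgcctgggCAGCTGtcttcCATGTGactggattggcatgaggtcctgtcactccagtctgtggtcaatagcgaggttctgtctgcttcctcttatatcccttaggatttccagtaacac
Neurod4, 20.6 kb downstream, chr10:130259520-130259819, minus strand: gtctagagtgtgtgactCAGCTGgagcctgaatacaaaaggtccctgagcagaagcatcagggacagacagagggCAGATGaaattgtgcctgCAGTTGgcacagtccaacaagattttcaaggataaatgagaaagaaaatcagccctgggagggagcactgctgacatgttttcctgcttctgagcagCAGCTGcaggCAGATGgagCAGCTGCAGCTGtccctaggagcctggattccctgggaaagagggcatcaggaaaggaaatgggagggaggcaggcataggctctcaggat
The windows held 2, 2, 0, 4, 3 and 7 E-boxes in this order, so the densest distal region of *Neurog2* had none in its middle while that of *Ptf1a*, at a GC content of 34%, had 4.

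The 2 libraries held 31876165 and 31672240 counts in intervals. Of these, 20243 and 20401 lay in the 48 member intervals, or 0.0635% and 0.0644%. Counts per member interval ran from 8 to 3067, and the intervals covered 44777 bp. A normalised count is the raw count divided by the DESeq2 size factor, and a density is the normalised count per kb of interval, so that regions of different length can be compared. *Atoh1*, *Neurog1* and *Ptf1a* had 9 intervals each, *Neurod4* 10, *Neurog2* 6, *Neurod1* 3 and *Neurog3* 2. Which intervals count as a member's depends on which starts are used. When the starts of all annotated genes, non-coding ones included, competed for intervals, 30 were left. When each gene had only the 5′ end of its gene record, 85 were assigned. Among the sorted-cell markers, the *Olig2* promoter had a density of 946 ± 23.2 (SD, n = 2). Of 4 genes of pluripotent cells, *Pou5f1* and *Nanog* had no interval over a start. *Zfp42* had 1 such interval (237 ± 4.87) and *Esrrb* had 3 (282 ± 2.04 together). The *Esrrb* density was near that of the *Ptf1a* promoter (284).

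Of the 48 intervals, 27 (56.25%) had a mean normalised count over 100, against 38.8% of all intervals. The share was close to that of intervals nearest to sensory and hindbrain markers (56.9%), pMN and neural progenitor markers (56.7%) and motor neuron markers (55.2%). It was therefore not particular to the members, nor to genes of the sorted cell type. Lower shares were found for p3 and floor plate markers (49.4%), the other neural bHLH genes (49.2%), and pancreatic endocrine (44.7%), feeder fibroblast (39.1%) and pluripotent markers (32.4%). The split by type was made next, because intervals over a start are usually the denser kind. Among the 42 distal member intervals, 21 (50%) were over 100, against 30.8% of all distal intervals. Their median density was 176 ± 2.57, and that of all 103268 distal intervals was 124 ± 2.05. Both libraries gave this order, and the difference was larger than the spread between them. That spread does not measure how the intervals vary, and distal member densities ran from 18.7 to 1222. No test of the difference was made, since neighbouring intervals of 1 gene are not replicates. Distal member intervals were also longer, with a median of 633.5 bp against 459 bp. With counts per interval in place of density, the median of the distal members was 98.0, against 53.5 for all distal intervals.

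**Figure D1:**
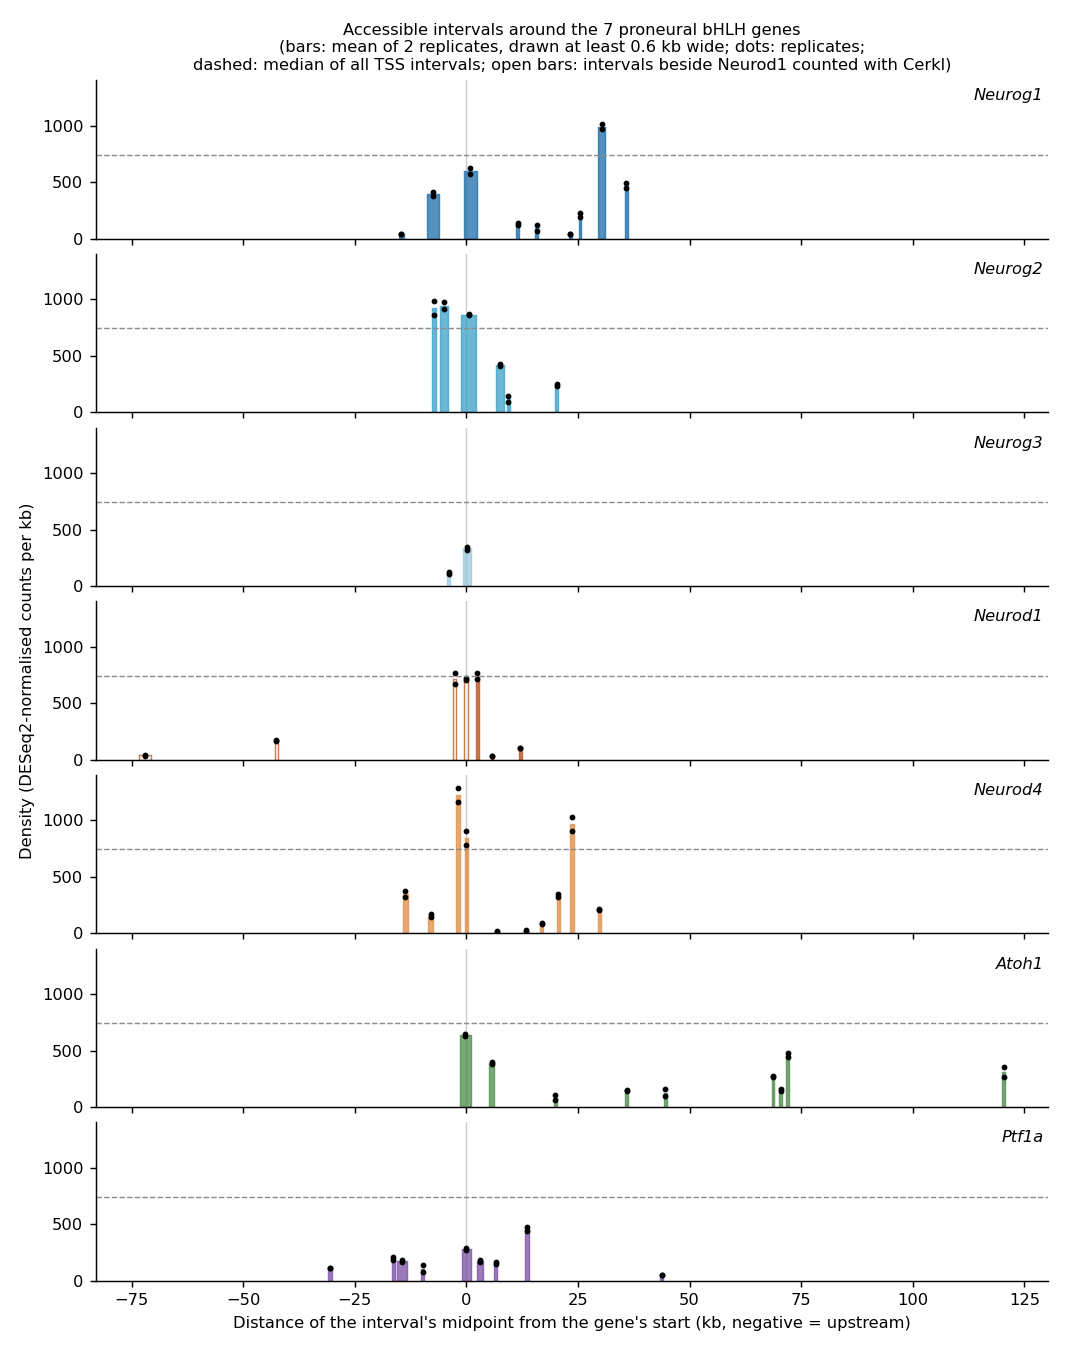
Density of each interval (DESeq2-normalised counts per kb, vertical axis) by its midpoint's distance from the member's start in kb (horizontal axis, negative is upstream), with bars for the mean of 2 replicates, dots for the replicates, and a dashed line at 743, the median of all TSS intervals. Open bars are the 4 intervals beside *Neurod1* that were counted with *Cerkl*. *Neurog2* and *Neurod4* rise above the line at and near their starts, *Neurog1* and *Neurod4* again far downstream, and no interval of *Neurog3*, *Atoh1* or *Ptf1a* reaches it.

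Of the neurogenins, *Neurog2* had the densest start. Its TSS interval (chr3:127631853-127635381, 3529 bp, over the coding exon and UTRs) held 3023 and 3067 counts, a density of 863 ± 8.32. The libraries were nearly equal here, and the density was above that of 67.6% of the 21938 protein-coding genes. Directly upstream lay 2 further dense regions. The interval 5.00 kb upstream (chr3:127627149-127629128, intergenic) held 1808 and 1926 counts, a density of 943 ± 41.6. The interval 7.28 kb upstream (chr3:127625366-127626338, intergenic) held 838 and 955 counts, a density of 921 ± 84.5. Both were denser than the promoter in both libraries, although in replicate 1 the farther one was so by little (862 against 857). These 3 intervals spanned 10.0 kb, of which 64.7% was inside an interval, and held 87.1% of the normalised counts of the locus. On the other side, the interval 7.49 kb downstream held 752 and 783 counts (417 ± 11.7), and the last 2 held between 23 and 70 counts.

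The TSS interval of *Neurog1* (chr13:56249815-56252699, 2885 bp, over the coding exon and UTRs) held 1807 and 1656 counts, a density of 600 ± 37.4. It lay above 54.95% of all genes, but above only 33.9% of genes with a TSS interval. The densest region of this locus was not at the start but 30.3 kb downstream (chr13:56221072-56222713), in an exon of the long non-coding RNA gene 4930550C17Rik. It held 1661 and 1588 counts, a density of 989 ± 32.01. Only protein-coding starts defined TSS intervals, and whether this distal interval covers the start of the non-coding gene was not tested. A long interval 7.38 kb upstream (2701 bp, intergenic) held 1114 and 1024 counts (396 ± 23.8), and the one 35.8 kb downstream held 230 and 253 (467 ± 31.2). The other 5 intervals of *Neurog1* had between 12 and 116 counts.

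*Neurog3* had the fewest intervals. Its TSS interval (chr10:62132530-62134296, 1767 bp, over the coding exon and UTRs, and within an intron of *Fam241b*) held 616 and 563 counts, a density of 334 ± 21.4. The only other interval, 4.0 kb upstream (chr10:62128751-62129428, in the *Fam241b* intron), held 83 and 71 counts (114 ± 12.6). The stretch nearer to *Neurog3* than to any other start was only 11.9 kb, at percentile 12.1 of all genes. Per 100 kb its 2 intervals came to 16.8. This rate was higher for *Neurod1* (21.6) and *Neurod4* (18.4). It was lower for *Neurog1* (15.3), *Neurog2* (13.0), *Ptf1a* (9.89) and *Atoh1* (4.74). With gene-record ends only, *Neurog3* had 10 intervals, of which 5 were over 100. Genes of the endocrine pancreas gave a mixed picture. *Pdx1* had a promoter density of 663 ± 37.2 and *Chga* of 783 ± 23.3, whereas *Ins1*, *Ins2* and *Gcg* had no interval over a start.

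The NeuroD genes are switched on by neurogenins as neurons form. *Neurod4* had the densest single region of all members. It lay 1.93 kb upstream of the start (chr10:130281690-130282651, intergenic), with 1115 and 1236 counts and a density of 1222 ± 88.2, denser than 98.9% of distal intervals. A second region 23.7 kb downstream (chr10:130256148-130256945, intergenic) held 721 and 819 counts, a density of 965 ± 86.3. The TSS interval itself was short (chr10:130280005-130280421, 417 bp, over UTR sequence) and held 326 and 379 counts, a density of 845 ± 89.4. The 7 other intervals held between 12 and 353 counts. Distal intervals thus held 88.5% of the normalised counts of *Neurod4*.

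The start of *Neurod1* lay 34 bp from a start of *Cerkl*. The interval over both (chr2:79456484-79457238, 755 bp) held 534 and 544 counts, a density of 714 ± 8.95. By the nearest-start rule it was counted with *Cerkl*, as were 3 more intervals upstream of *Neurod1*, so these 4 are not among the 48. The densest of the 3, 2.58 kb upstream (chr2:79458967-79459694), held 485 and 557 counts (716 ± 69.5). Of the *Neurod1* intervals proper, the one 2.48 kb downstream (chr2:79453915-79454621) lay on coding and UTR sequence of *Neurod1*, inside a *Cerkl* intron. It held 545 and 508 counts, a density of 745 ± 37.4, and the other 2 held between 13 and 25 counts. With the 4 intervals counted with *Cerkl*, the locus had 7 intervals and 1789 and 1845 counts, and 70.3% of the normalised counts were distal.

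*Atoh1* drives dorsal spinal interneurons, cerebellar granule cells and inner ear hair cells. Its TSS interval (chr6:64727690-64730110, 2421 bp, over the coding exon and UTRs) held 1560 and 1525 counts, a density of 637 ± 10.6. This was the densest interval of the locus. All 8 distal intervals lay downstream, over 120 kb of intergenic DNA. The nearest, 5.65 kb from the start (chr6:64734231-64735322), held 432 and 420 counts (390 ± 7.996). Farther out, the interval at 72.0 kb (chr6:64800938-64801274) held 149 and 160 counts (458 ± 22.8) and the one at 120 kb (chr6:64849213-64849799) held 156 and 206 (308 ± 60.1).

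*Ptf1a* specifies inhibitory neurons of the dorsal spinal cord and acinar cells of the pancreas. Its TSS interval (chr2:19444605-19446594, 1990 bp, over the coding exon, UTRs and the antisense gene *Ptf1aos*) held 585 and 546 counts. The density of 284 ± 14.02 was the lowest of the 7 promoters. The densest interval of the locus lay 13.6 kb downstream (chr2:19458833-19459789, intergenic), with 458 and 422 counts and a density of 460 ± 26.9. A wide interval 14.3 kb upstream (2238 bp, in exons of the non-coding genes Gm33940 and Gm13344) held 369 and 412 counts (174 ± 13.5). The other 6 distal intervals held between 8 and 234 counts.

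The promoters of all 7 members were thus covered by an interval, against 68.1% of protein-coding genes. In falling order the promoter densities were those of *Neurog2*, *Neurod4*, *Neurod1*, *Atoh1*, *Neurog1*, *Neurog3* and *Ptf1a*. The ranges over both libraries overlapped only between *Neurog2* (857 and 869) and *Neurod4* (782 and 909). Every other pair of neighbours in this order was separated, although with 2 libraries no exact permutation test between a pair of genes could pass 0.05. The order holds for density only. By normalised counts per TSS interval, *Neurog2* had 3045, *Neurog1* 1732, *Atoh1* 1543, *Neurog3* 590, *Ptf1a* 566, *Neurod1* 539 and *Neurod4* 352, since the interval of *Neurod4* was the shortest and that of *Neurog2* the longest. The median promoter density of the members was 637 ± 10.6. It lay above the median of all protein-coding genes (491 ± 8.19) and below that of genes with a TSS interval (827 ± 18.2).

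In these sorted cells the promoters of related genes spread widely. Of 13 other neural bHLH genes, 10 had a TSS interval. Over all 13, with a gene lacking one counted as 0 here and in the lists that follow, the median promoter density was 415 ± 18.1. *Olig2* was the highest, and *Neurod2*, *Neurod6* and *Nhlh1*, genes of maturing neurons, had none. The 3 E proteins ranged from 394 ± 2.41 for *Tcf4* to 869 ± 67.0 for *Tcf3*. All 8 repressors of proneural factors had a TSS interval, and their median was 1286 ± 30.5, higher than that of the members in both libraries. One of the 8, *Hes6*, antagonises *Hes1* and is also in the target list, and without it the median gene is *Id2*, at 1134 ± 29.2. The highest was *Hey1* at 1992 ± 37.9, and the lowest was *Id1* at 611 ± 1.91, inside the range of the 2 *Neurog1* values. Of 21 genes known as proneural targets or commitment genes, all had a TSS interval, with a median of 760 ± 28.4. *Cbfa2t2*, a co-repressor gene, was highest at 1826 ± 5.80, and *Dcx*, a gene of migrating neurons, lowest at 76.4 ± 7.77. Accessibility was measured on a bulk sample, so a site open in fewer cells cannot be told apart from a site less open in each cell.

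**Figure D2:**
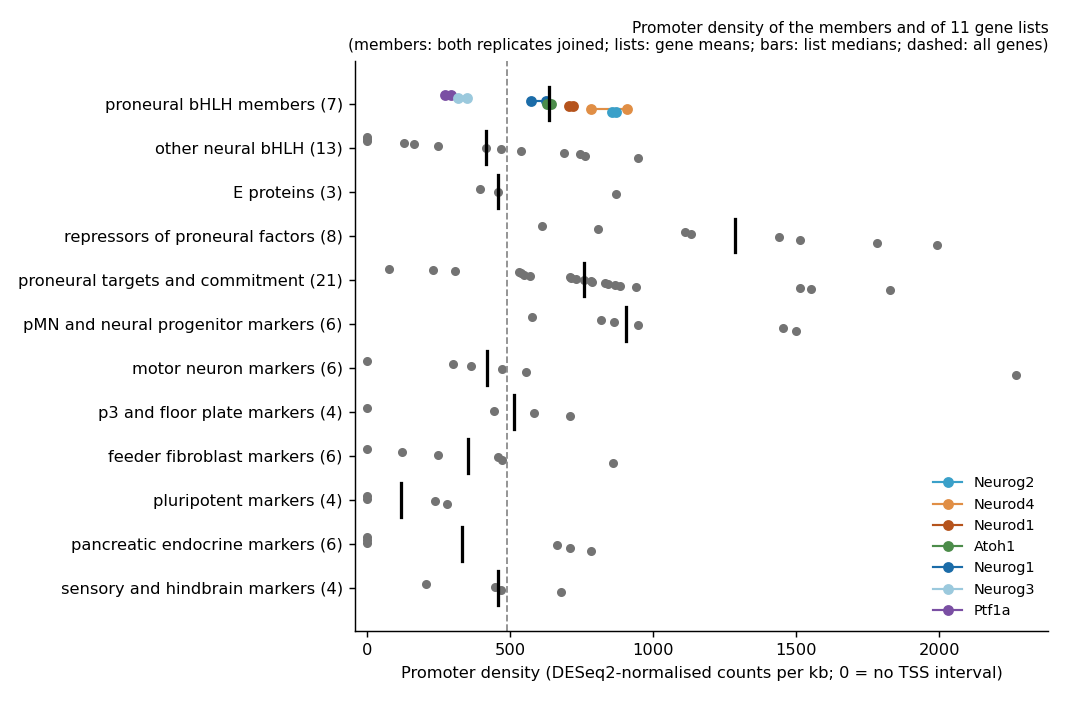
Promoter density (DESeq2-normalised counts per kb, horizontal axis) of the 7 members, with both replicates joined by a line, and of the genes of 11 lists as means, with list sizes in parentheses. Black bars are list medians and the dashed line is the median of all protein-coding genes (491). The members sit between 274 and 909, and the repressor list is shifted to the right of them with a median of 1286.

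Markers of other cells that the culture or the gate could hold were read the same way. The 6 motor neuron markers had a median of 419 ± 1.62, with *Isl2* highest at 2268 ± 182 and *Chat* without a TSS interval. The 4 markers of p3 and floor plate had a median of 515 ± 35.6, from *Shh*, which had no TSS interval, to *Nkx2-2* at 711 ± 19.9. Those of feeder fibroblasts ranged from *Col3a1*, with no TSS interval, to *Pdgfra* at 860 ± 39.6, with a median of 353 ± 15.0. Per the labels, feeders were removed by repeated plating before differentiation, and the sort was for mKate2. The share of such cells and its part in the member values was not tested.

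Above the promoter level, 6 of the 42 distal member intervals (*Neurod4* 2, *Neurog2* 2, *Neurog1* 1 and *Neurod1* 1) were denser than the median of all TSS intervals, 743. Of all distal intervals 3.5% were. The interval of *Neurod1*, at 745, was just inside this limit, and the next of the 42 below it was that of *Neurog1* 35.8 kb downstream, at 467. A gene's densest distal interval was then set against its own promoter in each library. For *Neurog1* the ratio was 1.62 and 1.68, for *Ptf1a* 1.63 and 1.61, for *Neurod4* 1.48 and 1.41, and for *Neurog2* 1.07 and 1.12. These 4 exceeded 1 in both libraries. *Neurod1* gave 1.09 and 0.997, on both sides of 1. For *Atoh1* (0.686 and 0.754) and *Neurog3* (0.351 and 0.329) the promoter was the denser. By the mean, 5 of 7 members had a distal interval denser than the promoter, against 25.8% of the 11818 genes with both kinds of interval. A gene with more intervals has more chances for this. Members had a median of 9 intervals, against 4 for all 14945 genes with a TSS interval, some of which had no distal interval. The median of the 11818 genes was not taken, and the shares are given without a test. The ratios also hold for density only. By normalised counts the same distal interval exceeded the TSS interval only for *Neurod4* (1175 against 352). The TSS interval held more for *Neurog1* (1732 against 1625), *Neurod1* (539 against 527), *Neurog2* (3045 against 1867) and *Ptf1a* (566 against 440).

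**Figure D3:**
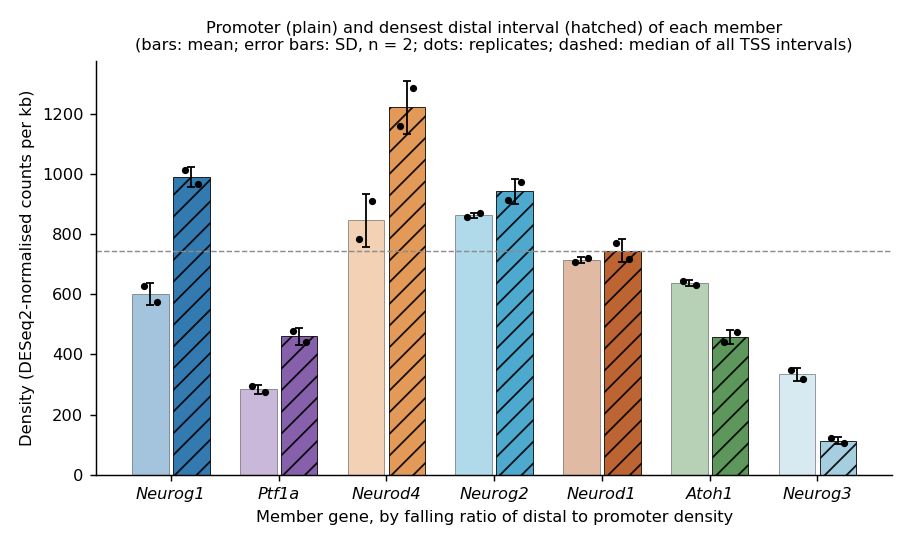
Density (DESeq2-normalised counts per kb, vertical axis) of the TSS interval (plain bars) and of the densest distal interval (hatched bars) of each member (horizontal axis), as mean with SD (n = 2) and the replicates as dots. The distal bar is higher for *Neurog1*, *Ptf1a*, *Neurod4* and *Neurog2* in both replicates, near equal for *Neurod1*, and lower for *Atoh1* and *Neurog3*, and the dashed line marks the median of all TSS intervals (743).

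Close to the start the members stood highest. Of 5 distal member intervals within 5 kb of a start, 4 were over 100, against 36.4% of all distal intervals at that distance. The median density of the 5 was 745 ± 37.4, against 137 ± 1.53. Between 5 and 20 kb the members' median fell to 139 ± 3.91 over 21 intervals, against 122 ± 1.56. From 20 to 50 kb it was 210 ± 13.2 over 12 intervals, against 123 ± 1.74. Beyond 50 kb there were 4, all of *Atoh1*, with a median of 291 ± 32.9 against 121 ± 2.88. The first bin holds 1 interval from each of 5 genes, with densities from 114 (*Neurog3*) to 1222 (*Neurod4*), so 1 locus can move its median. Of the 42 distal intervals 12 lay upstream and 30 downstream, and 28 were intergenic while 14 lay in a gene record. The lengths of the upstream and downstream stretches assigned to each gene were not compared.

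The sequence under the intervals was examined for what the rule did not use. In the middle 300 bases of each interval, searched on both strands, an E-box (CANNTG) was found in 36 of 42 distal member windows (85.7%), against 82.9% of all distal windows. The mean number was 1.88 per window and 1.84, respectively. The E-box forms CAGATG and CAGCTG, each of which is also counted as CANNTG, were found in 28.6% and 23.8% of member windows, against 29.3% and 22.9%. These shares lie near the background, so member loci did not stand out by E-box content. The window 20.6 kb downstream of *Neurod4*, printed above, had 7 E-boxes, a number reached by 0.502% of all distal windows, and it was singled out after its value was seen. Its interval held 103 and 113 counts (336 ± 21.8). The homeodomain core TAATTA was found in 6 member windows (14.3%) against 7.82%, and the Sox-like words ACAAAG and ACAATG in 38.1% and 31.0%, against 34.04% and 23.6%. The RBPJ word GTGGGAA was in 2 windows (4.76% against 7.04%) and the Gli core TGGGTGG in 2 (4.76% against 8.201%). A match is only a run of letters, and no binding was measured.

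At the starts the members differed in base composition. In the 300 bases from 250 before to 50 after each start, the median GC content was 64% for the members and 55% for all protein-coding genes. An E-box was present at 3 of 7 member starts, against 70.0% of gene starts. All gene starts include those without an interval. In the middle 300 bases of all TSS intervals the median GC content was also 64%, and 62.0% held an E-box. *Neurod4* stood apart with a CpG ratio (observed over expected) of 0.199, at the 23.8th percentile of gene starts, while the other 6 ran from 0.547 to 0.876. Its TSS interval was also the shortest, at 417 bp against 755 to 3529 bp. All 7 members were found by symbol in the RefSeq promoter table (GRCm38.p6, the assembly of mm10). The 250 bases before the start are shown for *Neurod4* and for *Neurog1*, which had the lowest and the highest CpG ratio in the windows above, with each CpG in capitals. These stretches end at the RefSeq start, which lay 14 bases from the GENCODE start for *Neurod4* and 17 bases for *Neurog1*. A second RefSeq start of *Neurod4*, 102 bases from the GENCODE start, gave a stretch with a CpG ratio of 0.379, against 0.125 for the one shown.
Neurod4, chr10:130280255-130280504, minus strand: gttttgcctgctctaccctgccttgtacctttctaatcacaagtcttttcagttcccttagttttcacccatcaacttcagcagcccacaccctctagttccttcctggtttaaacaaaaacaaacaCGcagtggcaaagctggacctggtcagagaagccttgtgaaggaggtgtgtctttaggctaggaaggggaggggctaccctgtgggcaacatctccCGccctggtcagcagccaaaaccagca
Neurog1, chr13:56252181-56252430, minus strand: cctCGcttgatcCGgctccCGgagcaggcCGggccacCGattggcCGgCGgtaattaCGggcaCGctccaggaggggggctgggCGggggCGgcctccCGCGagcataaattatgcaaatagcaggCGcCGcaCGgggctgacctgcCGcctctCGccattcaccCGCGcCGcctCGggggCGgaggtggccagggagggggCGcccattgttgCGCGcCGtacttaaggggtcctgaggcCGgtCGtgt
The *Neurod4* stretch held 2 CpGs and the *Neurog1* stretch 29.

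Last, the libraries were compared with each other, to know how far a member's value can be trusted. By a two-sided exact binomial test, adjusted by Benjamini-Hochberg over the table, 0 of the 48 member intervals differed at 0.01, and 0% of all intervals did. The smallest adjusted p of a member was 0.368, for the *Neurog2* interval 7.28 kb upstream (exact binomial test, 838 and 955 counts). Unadjusted p-values under 0.05 were found in 5 member intervals (10.42%), against 8.39% of all intervals. Among member intervals over 100, the largest difference was 0.40 on the log2 scale, at *Atoh1* 120 kb downstream, and 0 differed over 1.5-fold. The SD of their log2 ratio was 0.16, against 0.14 for all intervals over 100. With edgeR TMM factors 6 intervals of the table were called, and 0 of these were of a member. A low count gave a wide spread, as at *Ptf1a* 9.79 kb upstream (21 and 12 counts).

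**Figure D4:**
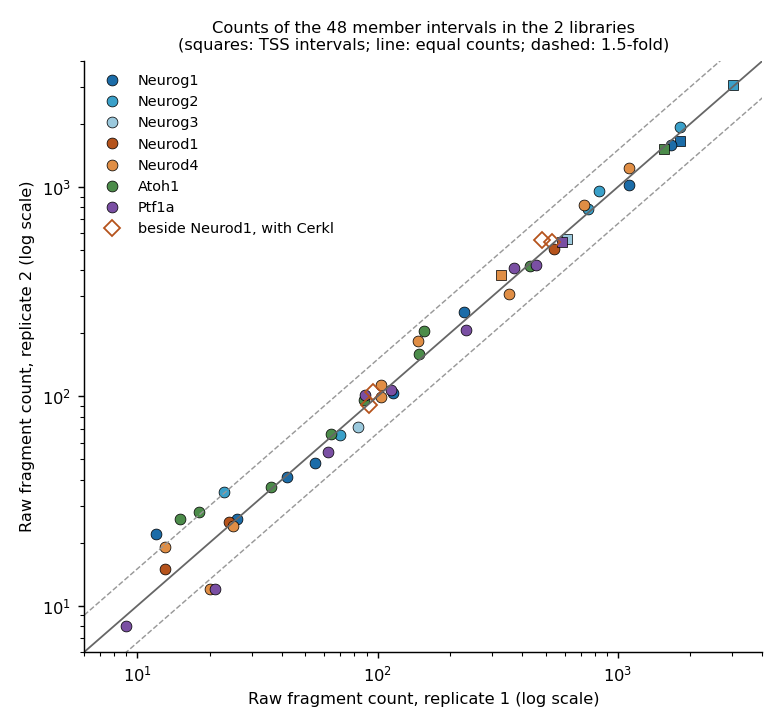
Raw fragment counts of the 48 member intervals in replicate 1 (horizontal axis, log scale) and replicate 2 (vertical axis, log scale), coloured by gene, with squares for TSS intervals and open diamonds for the 4 intervals beside *Neurod1*. Intervals with a mean count over 100 lie within the dashed 1.5-fold lines, and only intervals of few counts fall outside them.

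The direction of the small differences was then counted by locus. All 4 *Neurog2* intervals over 100 and 5 of 7 of *Neurod4* were higher in replicate 2, whereas 1 of 5 was at *Neurog1* and 1 of 5 at *Ptf1a*. To follow this up after the values were seen, counts were summed over each locus. *Neurod4* held 2926 and 3193 counts, a log2 ratio of replicate 2 over replicate 1 of 0.12 (exact binomial test, adjusted p = 0.0516). *Neurog3*, with 699 and 634 counts, had the lowest ratio (-0.14, adjusted p = 0.423 in the same exact test). At 0.01 the test called 0 of 7 members, and 0.369% of the 17907 genes with an interval. The unadjusted exact p was under 0.05 for *Neurog1*, *Neurog2* and *Neurod4*, and for 13.8% of those genes. Nothing in the labels says that the libraries came from separate cultures, so these values measure only the spread between 2 libraries, which may be technical.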

How the data were processed

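ATAC-seq was performed on live mKate2-positive cells, in 1 group of 2 replicates. The deposited values were raw counts of fragments in consensus intervals, which the authors made with featureCounts 2.0.1 on read pairs with a minimum overlap fraction of 0.2, per the file headers. The study's methods describe the nf-core atacseq pipeline (1.2.0), alignment to mm10 and MACS peaks. The intervals were defined over 5 libraries, 3 of which match no sample here and were not used, so a weak interval can stem from them. A fragment can count in more than 1 interval.

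Densities are counts over DESeq2 (1.42.0) size factors and over interval length in kb. Intervals were assigned to the gene of the nearest protein-coding transcript start in GENCODE (mm10), and those over such a start were called TSS intervals. All others were called distal, including any that lay over the start of a non-coding gene only. Promoter density was that of a gene's TSS intervals, or 0 without one. The 2 counts of each interval were compared by a two-sided exact binomial test with Benjamini-Hochberg adjustment over all intervals. This compares libraries, not conditions. Fragments carry no molecular identifiers, so the test covers counting error only. The test was tested on simulated data over 119502 intervals and recovered 200 of 200 intervals changed 2-fold, with 2 false calls. The changed intervals were drawn only from those of high summed counts, and all counts were simulated with the binomial error that the test assumes. The recovery thus does not cover intervals of few counts, or variation beyond counting error. The 0 adjusted calls compare with 10029 at an unadjusted p under 0.05 and 6 under edgeR (4.0.16) TMM factors.

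The members and the gene lists were chosen with earlier results of these data known, and some list genes stand in more than 1 list (*Hes6*, *Olig2*, *Nkx2-2*). Named with coordinates were all TSS intervals, each member's densest interval, those denser than the median TSS interval, and the one that differed most between libraries, and further ones were picked after their values were seen. One result is not reported here. Sequences came from the mm10 genome and RefSeq promoters, and all intervals ended within its chromosomes. Software was scipy 1.17.1, statsmodels 0.14.6, pandas 2.3.3, matplotlib 3.10.9, numpy 2.4.6 and Python 3.11.15. Alternatives covered the normalisation, count limits, the start definition, distance, counts per interval and leaving out a replicate.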

Additional observations from a re-analysis of the deposited data

How the results depend on the processing

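The number of member intervals was 48, but 30 with the starts of all annotated genes and 85 with only the 5′ end of the gene record. By construction, more or fewer starts compete for the intervals. The median density of distal member intervals, 176, became 98.0 as counts per interval, 182 among intervals with a mean count of at least 10, 170 within 100 kb of a start, and 174 without the *Cerkl* start beside *Neurod1*, a setting chosen after seeing the data. Without one replicate it was 174 to 178. The other alternatives left each number of intervals within 1.5 times its value, and with TMM factors, total counts or a mean count of at least 10 the test between libraries called 0 members. Promoter densities stayed within 1 SD with TMM factors and with intervals within 1 kb of a start.

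No paired analysis was possible because the labels form 1 group. With 2 libraries, differences between genes rest on ranges, and intervals of few counts give values that counting error alone can move.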

Other observations

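Genes for sensory and dorsal cell types, which *Atoh1* and related factors drive, had promoters in the middle of the range. All 4 genes of this list had a TSS interval, with a median density of 458 ± 20.2. *Lhx2* was the highest at 678 ± 37.0 and *Barhl1*, a gene of *Atoh1*-lineage neurons, the lowest at 208 ± 14.9. By comparison, the *Atoh1* promoter had 637 ± 10.6.

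Among Notch ligands, *Dll1* had a promoter density of 831 ± 13.3, *Dll3* of 537 ± 40.2 and *Dll4* of 533 ± 28.5. *Dll1* also had a distal interval of density 3348, which is denser than every distal interval of the 7 members. *Hes5*, the Notch effector of neural progenitors, had a promoter density of 1782 ± 3.08 and *Hes6*, which antagonises *Hes1*, of 1515 ± 28.8. The 6 pMN and neural progenitor markers had a median of 904 ± 24.5, from *Pax6* at 577 ± 4.65 to *Sox1* at 1498 ± 73.3. Over the 4 pluripotency markers the median was 119 ± 2.43, with the 2 that had no TSS interval counted as 0. These levels come from 1 condition, and no test was made between lists.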
